A study of Mus musculus with 9 samples.

Results

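The Rab family of small GTPases was examined in 3 populations of phagocytes from mouse Peyer's patches, lymphoid tissue in the wall of the small intestine. Members were the genes whose only symbol in the platform annotation is Rab, then digits and at most 1 lower-case letter. Of several transcript clusters (the probe sets of a gene on this array) per gene, the cluster with the highest mean level was kept. This gave 58 Rab genes of 22180 genes. The rule used names and mean levels over all arrays, not differences between populations, but it was set with earlier results of these data known. Rab4b was present only on clusters with several symbols and was left out.

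The data are 9 whole-transcript Affymetrix arrays, 3 for each of LysoMac, C5aR+ LysoDC and C5aR- LysoDC. These are lysozyme-expressing macrophages (LysoMac) and lysozyme-expressing dendritic cells (LysoDC), the latter divided by whether they carry C5aR, which binds the complement fragment C5a. All 3 were enriched on CD11c and sorted by flow cytometry, and no treatment separates them. The sources used here do not give strain, age, sex or the number of animals per array. The arrays of a population may therefore be technical replicates, and a p-value measures only how these samples vary. Values are log2 expression, and a difference of 1 is a 2-fold difference. C5ar1, which encodes C5aR, was listed between 4.19 and 4.99 in LysoMac and between 4.09 and 5.04 in C5aR+ LysoDC. In the C5aR- LysoDC arrays it was between 2.72 and 3.27, in the direction the labels give.

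A Rab protein switches between a form bound to GDP and a form bound to GTP, and in the GTP form it sits on a particular membrane and recruits effectors that move, tether or fuse vesicles. Exchange factors (GEFs) turn a Rab on, GTPase-activating proteins (GAPs) turn it off, and a prenylation and extraction machinery places it on membranes and removes it. In phagocytes, successive Rab proteins mark the maturation of a phagosome, the compartment in which ingested material is killed, degraded and cut into peptides for presentation to T cells.

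No Rab gene passed the test in any of the 3 comparisons (limma, Benjamini-Hochberg adjusted p under 0.05 over all 33793 transcript clusters), and the Rab genes closest to it were Rab32 and Rab21. Of 108 regulators and effectors of Rab proteins, 2 (1.85%) passed, and both were higher in C5aR- LysoDC than in LysoMac. Of all 22180 genes 433 passed in that comparison. The 2 regulators were Rin3, a GEF for the Rab5 subfamily, and Tbc1d4, a GAP that acts on Rab8a, Rab10 and Rab14. The stretches of 150 bases before the start of these 4 genes are shown because they are the 2 regulators that passed and the 2 Rab genes with the smallest adjusted p in that comparison. They were chosen after these values were seen, and Rab32 and Rab21 did not pass. They are RefSeq sequences of the mouse build GRCm38.p6, written 5′ to 3′ on the gene's strand. They lie at chr10:10558208-10558357 (minus strand) for Rab32, chr10:115315592-115315741 (minus strand) for Rab21, chr12:102282924-102283073 (plus strand) for Rin3 and chr14:101609192-101609341 (minus strand) for Tbc1d4. For Rin3, 2 starts are listed and the more upstream one was taken. Capitals mark matches, on either strand, to any of 7 motifs searched. These were the E-box CACGTG, its longer form CACGTGAC, the ETS-type motif GAGGAAGT, its core GGAAGT, the interferon-type motif of spaced TTTC repeats, the site TGAGTCA of Fos and Jun proteins, and the GC box GGGCGG. The longer form overlaps the E-box, and the ETS-type motif overlaps its core.
Rab32: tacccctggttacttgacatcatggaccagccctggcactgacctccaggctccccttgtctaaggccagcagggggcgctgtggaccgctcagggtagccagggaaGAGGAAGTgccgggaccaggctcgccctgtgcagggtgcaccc
Rab21: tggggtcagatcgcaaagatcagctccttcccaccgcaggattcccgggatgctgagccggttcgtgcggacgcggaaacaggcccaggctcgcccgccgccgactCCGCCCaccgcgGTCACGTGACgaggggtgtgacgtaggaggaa
Rin3: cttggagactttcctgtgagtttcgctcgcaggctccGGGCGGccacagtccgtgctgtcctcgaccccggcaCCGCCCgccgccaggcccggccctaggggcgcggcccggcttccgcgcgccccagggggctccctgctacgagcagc
Tbc1d4: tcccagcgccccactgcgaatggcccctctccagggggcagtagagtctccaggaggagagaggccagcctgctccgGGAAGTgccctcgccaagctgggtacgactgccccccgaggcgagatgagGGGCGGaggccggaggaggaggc

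RefSeq promoters were found for 47 of the 58 Rab genes (59 promoters), with no entry for Rab7b or Rab30. Over the 250 bases before each start, the GC box GGGCGG was in 66.1% of the Rab promoters and in 32.7% of all 32851 promoters. The E-box CACGTG was in 8.47% against 6.02%, its longer form CACGTGAC in 3.39% against 1.85%, and GAGGAAGT in 3.39% against 2.44%. GGAAGT was in 16.9% against 19.7%, the interferon-type motif in 1.69% against 2.98%, and TGAGTCA in 3.39% against 4.46%. In the windows shown, GAGGAAGT begins 43 bases before the Rab32 start, and CACGTG begins 30 bases before that of Rab21. The search was limited to the bases before the start after a first look at the whole windows, which run past it. Over the whole windows the GC box was in 67.8% of Rab promoters against 35.7% of all, and GGAAGT was in 25.4% against 23.8%, which turns the order of those shares. These matches are descriptions of letters, not sites of binding.

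Of 58 Rab genes, 40 were above the median of every array, 7 were below the median of every array and 11 were above it in some arrays only. The array median is not a threshold of expression. The share of all genes above it is not given, so these counts are not a result about the family. The median Rab level was 4.99 on the LysoMac arrays, 5.19 on those of C5aR+ LysoDC and 4.91 on those of C5aR- LysoDC. LysoMac had the highest mean for 21 Rab genes, C5aR+ LysoDC for 18 and C5aR- LysoDC for 19. It had the lowest mean for 29, C5aR+ LysoDC for 12 and C5aR- LysoDC for 17. At an unadjusted p under 0.05, 13 Rab genes (22.4%) differed between C5aR- LysoDC and LysoMac, 4 higher and 9 lower in C5aR- LysoDC. Of all 22180 genes 14.6% did so, 1916 higher and 1330 lower, and 1.53% of transcript clusters were called by adjusted p. Between C5aR+ LysoDC and LysoMac 7 Rab genes (12.1%) had an unadjusted p under 0.05, 4 higher and 3 lower. This compares with 6.49% of genes (880 higher and 559 lower) and 0.0503% of clusters by adjusted p. Between C5aR+ and C5aR- LysoDC the count was also 7 (12.1%), 4 higher and 3 lower in C5aR+. This compares with 6.41% of genes (583 higher and 838 lower) and 0.101% of clusters by adjusted p. The F test over the 3 populations, in which 0.755% of clusters passed, called no Rab gene; 11 had an unadjusted p under 0.05, where 10.6% of genes did.

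The median difference over the 58 Rab genes was 0.08 for C5aR- LysoDC minus LysoMac, 0.10 for C5aR+ LysoDC minus LysoMac and 0.01 for C5aR+ minus C5aR- LysoDC. Over all genes it was -0.04, -0.02 and 0.01. Of all 22180 genes, 9804 were above and 12367 below 0 for C5aR- LysoDC minus LysoMac. For C5aR+ LysoDC minus LysoMac 10418 were above and 11759 below 0. The first 2 comparisons share the LysoMac arrays, so their values are not independent of each other. A difference of 2-fold or more in either direction lay outside the 95% interval of 40, 45 and 47 Rab genes in the order of the 3 comparisons. These were 69.0%, 77.6% and 81.0% of Rab genes, against 75.4%, 82.1% and 83.5% of all genes. For the other Rab genes the interval, from 3 arrays per population, included such a difference. The plot of all Rab differences shows the width of these intervals.

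**Figure D1:**
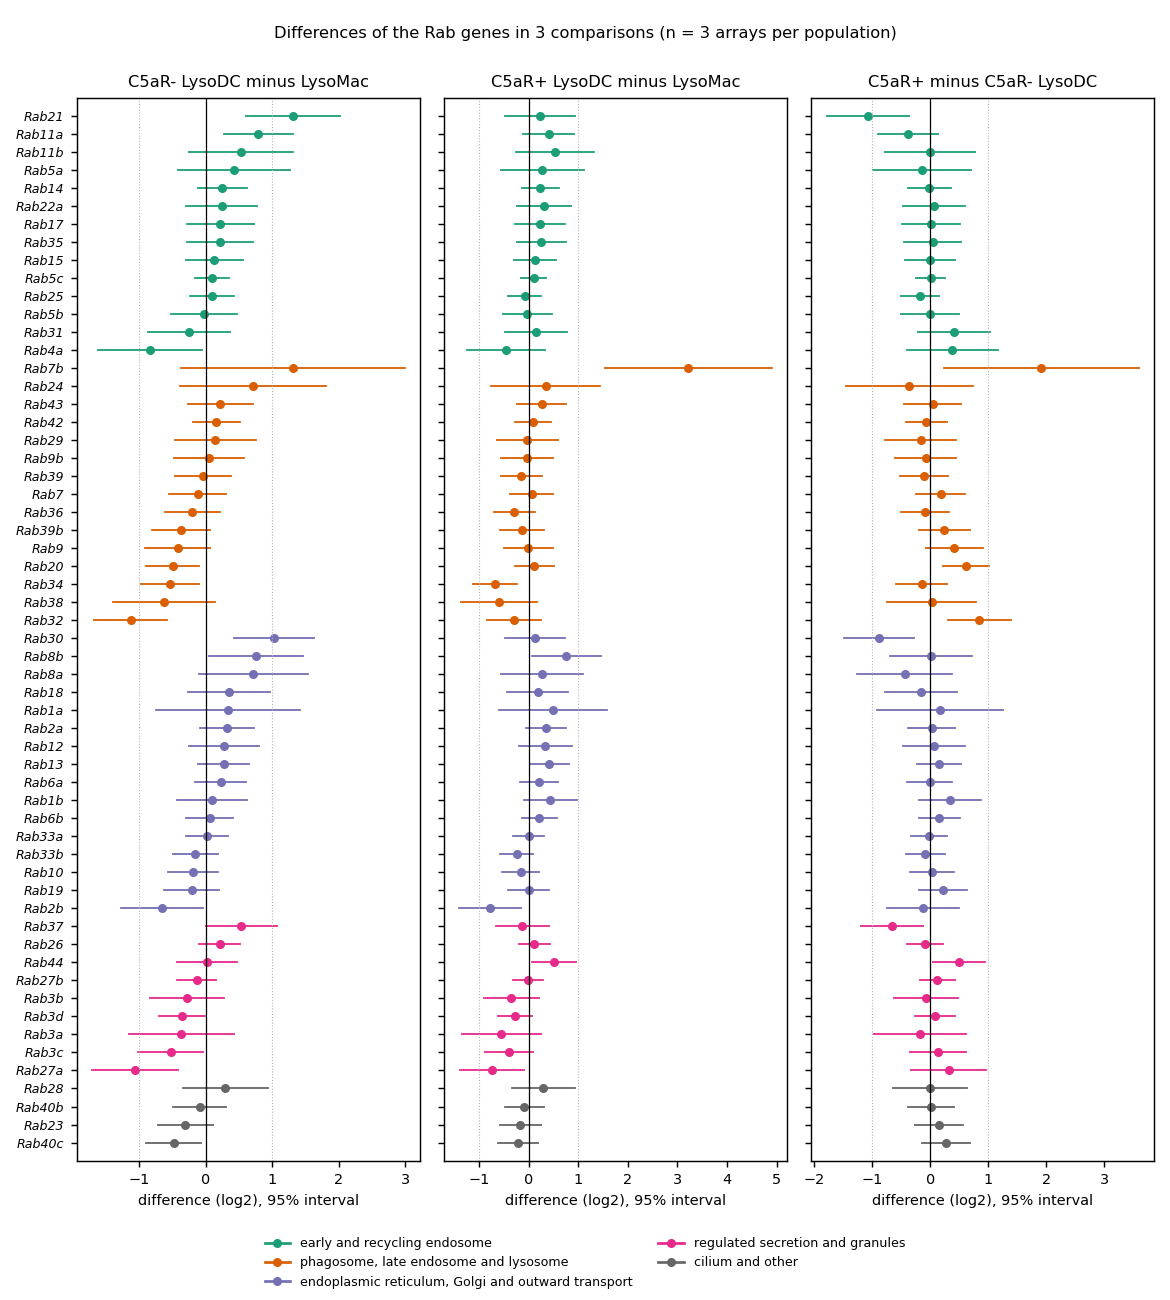
Differences on the log2 scale (points) with 95% intervals from limma (lines) for the 58 Rab genes in each of 3 comparisons, n = 3 arrays per population, coloured by role group and ordered within a group by the first comparison; dotted lines mark a 2-fold difference. Most intervals cover 0, and Rab7b has the widest.

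LysoMac arrays varied most. The median SD over Rab genes was 0.31 on the LysoMac arrays, 0.20 on those of C5aR+ LysoDC and 0.20 on those of C5aR- LysoDC, and over all genes it was 0.28, 0.18 and 0.18. LysoMac had the largest SD of the 3 for 35 of 58 Rab genes. LysoMac array 2 held the lowest of the 9 values for 22 Rab genes and the highest for 11, and it had the narrowest interquartile range of all arrays (2.16). LysoMac array 3 correlated with the arrays of the other populations at a mean r of 0.968 and with its own at 0.954. Without LysoMac array 2 the counts at an unadjusted p under 0.05 were 7 for C5aR- LysoDC minus LysoMac and 3 for C5aR+ LysoDC minus LysoMac. Without LysoMac array 3 they were 18 and 12. Without C5aR- LysoDC array 2 the first of these counts was 8 and that for C5aR+ minus C5aR- LysoDC was 4. Without C5aR+ LysoDC array 3 the count for C5aR+ LysoDC minus LysoMac was 3. The shares of all genes without these arrays are not given, so these counts are not a result about the family.

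Marker lists differed between the populations as well. The mean level of 9 macrophage markers was 8.58 to 9.25 in LysoMac arrays, 9.14 to 9.82 on C5aR+ LysoDC arrays and 8.21 to 8.89 on C5aR- LysoDC arrays. Of these 9, 3 passed as lower in C5aR- LysoDC than in LysoMac, as did 109 of all 22180 genes. The macrophage list was split in that comparison, from -2.13 (Mertk) to 1.81 (Fcgr1, not passing, arrays without overlap), with a median of -0.75. The mean level of 9 conventional dendritic cell markers was 4.99 to 5.39, 5.86 to 5.96 and 7.14 to 7.70. Of these, 7 passed as higher in C5aR- LysoDC than in LysoMac, as did 324 of all 22180 genes. The dendritic cell list ran from -0.30 (Dpp4, not passing) to 3.86 (Ccr7) in that comparison. The mean level of the B cell list per array ran from 4.07 to 4.12 on the LysoMac arrays. It ran from 4.54 to 4.97 on those of C5aR+ LysoDC and from 4.92 to 5.02 on those of C5aR- LysoDC. For epithelial and M cell markers the list mean ran from 3.69 to 4.02, 3.79 to 3.97 and 4.49 to 4.98. For stromal and endothelial markers it ran from 3.76 to 4.15, 4.39 to 4.74 and 4.67 to 4.83. For plasma cell markers the list mean ran from 4.99 to 5.43, 5.68 to 6.44 and 5.67 to 6.21. On every LysoMac array this plasma cell mean lay below those of all LysoDC arrays. Single markers went both ways in C5aR- LysoDC minus LysoMac. Plasma cell markers differed by -0.83 (Sdc1) to 3.10 (Jchain), and epithelial and M cell markers by -0.49 (Vil1) to 3.86 (Gp2). B cell markers differed by -0.71 (Cd79b) to 1.82 (Blk), and stromal and endothelial markers by -0.30 (Cdh5) to 2.77 (Lum). Of 6 mast cell markers, 5 were below the median of every array. The array means of the T cell, neutrophil and plasmacytoid dendritic cell lists in both LysoDC populations overlapped those of LysoMac. From those lists Mmp9, a neutrophil marker, alone passed, as higher in C5aR- LysoDC than in LysoMac (2.00). The part of these differences in the Rab values below was not tested, and a different mixture of cells cannot be told apart from a different amount of RNA per cell in bulk samples.

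The 15 Rab genes of phagosomes, late endosomes and lysosomes had a median difference of -0.12 for C5aR- LysoDC minus LysoMac, with 6 above and 9 below 0. None passed, and 3 had an unadjusted p under 0.05, all lower in C5aR- LysoDC. Of all 22180 genes 14.6% had such a p, 1916 higher and 1330 lower. Rab32, which acts with Rab38 in building lysosome-related organelles and is found on phagosomes, was at 7.85, 7.54 and 8.32 in the LysoMac arrays. The values were 7.54, 7.74 and 7.57 for C5aR+ LysoDC and 6.44, 6.70 and 7.19 for C5aR- LysoDC. Each C5aR- LysoDC array was therefore below each of the other 6 arrays. The difference of C5aR- LysoDC from LysoMac was -1.13 ± 0.24 (SE; 95% interval -1.67 to -0.59), with an adjusted p of 0.0604. C5aR+ LysoDC exceeded C5aR- LysoDC by 0.84 ± 0.24 (adjusted p = 0.464) and differed from LysoMac by -0.29 ± 0.24 (adjusted p = 0.823).

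The Rab32 call depended on the setting. After quantile normalization of the deposited values the difference from LysoMac was -1.33 with an adjusted p of 0.0101, and after cyclic loess it was -1.34 with 0.00744. Over all its alternatives the adjusted p ran from 0.00744 to 0.24 and the difference from -1.34 to -0.92. Rab38, its closest relative, was at 7.34, 6.54 and 6.94 on the LysoMac arrays, 6.99, 6.22 and 5.80 on those of C5aR+ LysoDC and 6.63, 6.47 and 5.83 on those of C5aR- LysoDC. These ranges overlap, and the difference of C5aR- LysoDC from LysoMac was -0.63 ± 0.34 (adjusted p = 0.462).

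Rab20, which takes part in phagosome maturation in macrophages, was at 8.63, 8.76 and 8.61 on the LysoMac arrays, 8.59, 8.80 and 8.95 on those of C5aR+ LysoDC and 8.32, 7.84 and 8.36 on those of C5aR- LysoDC. As for Rab32, all C5aR- LysoDC arrays were below all others. Its difference was 0.61 ± 0.17 for C5aR+ minus C5aR- LysoDC (unadjusted p = 0.00669, adjusted p = 0.465) and -0.50 ± 0.17 for C5aR- LysoDC minus LysoMac (adjusted p = 0.269). With the mean of its 2 clusters the first of these was 0.36. Rab34, linked to phagosome maturation and the position of lysosomes, was at 4.02, 4.11 and 3.40 in LysoMac and between 3.04 and 3.42 in the 6 LysoDC arrays. Those 6 arrays were below their array medians, and LysoMac array 3 lay at the LysoDC level. The difference was -0.68 ± 0.19 for C5aR+ LysoDC minus LysoMac (adjusted p = 0.64) and -0.53 ± 0.19 for C5aR- LysoDC minus LysoMac (adjusted p = 0.288).

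Rab7b, which directs traffic from endosomes to the trans-Golgi network, had the largest Rab difference and the largest spread. It was at 3.23, 3.19 and 3.66 on the LysoMac arrays, 5.35, 6.16 and 8.23 on those of C5aR+ LysoDC and 4.78, 3.43 and 5.80 on those of C5aR- LysoDC. All C5aR+ LysoDC arrays were above all LysoMac arrays, and the SD was 1.49 within C5aR+ LysoDC. LysoMac arrays 1 and 2 were below their array medians, so a difference from LysoMac rests on dim values. The difference of C5aR+ LysoDC from LysoMac was 3.22 ± 0.74 (95% interval 1.54 to 4.90; unadjusted p = 0.00185, adjusted p = 0.416) and 2.40 without C5aR+ LysoDC array 3. C5aR+ exceeded C5aR- LysoDC by 1.91 ± 0.74 (adjusted p = 0.767), and by 1.09 without that array.

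Rab7, the general Rab of fusion between late endosomes and lysosomes, was between 10.65 and 11.39 in all 9 arrays. Its difference of C5aR- LysoDC from LysoMac was -0.12 (95% interval -0.54 to 0.31) and that of C5aR+ LysoDC from LysoMac 0.06 (-0.37 to 0.49), so intervals on both sides lay within a 2-fold difference. Rab43, known from cross-presentation in dendritic cells, was between 5.20 and 6.09, with a difference of 0.22 (-0.27 to 0.71) for C5aR- LysoDC minus LysoMac. Rab39 was below the median of every array (2.08 to 2.65), as was Rab39b (2.43 to 3.41).

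**Figure D2:**
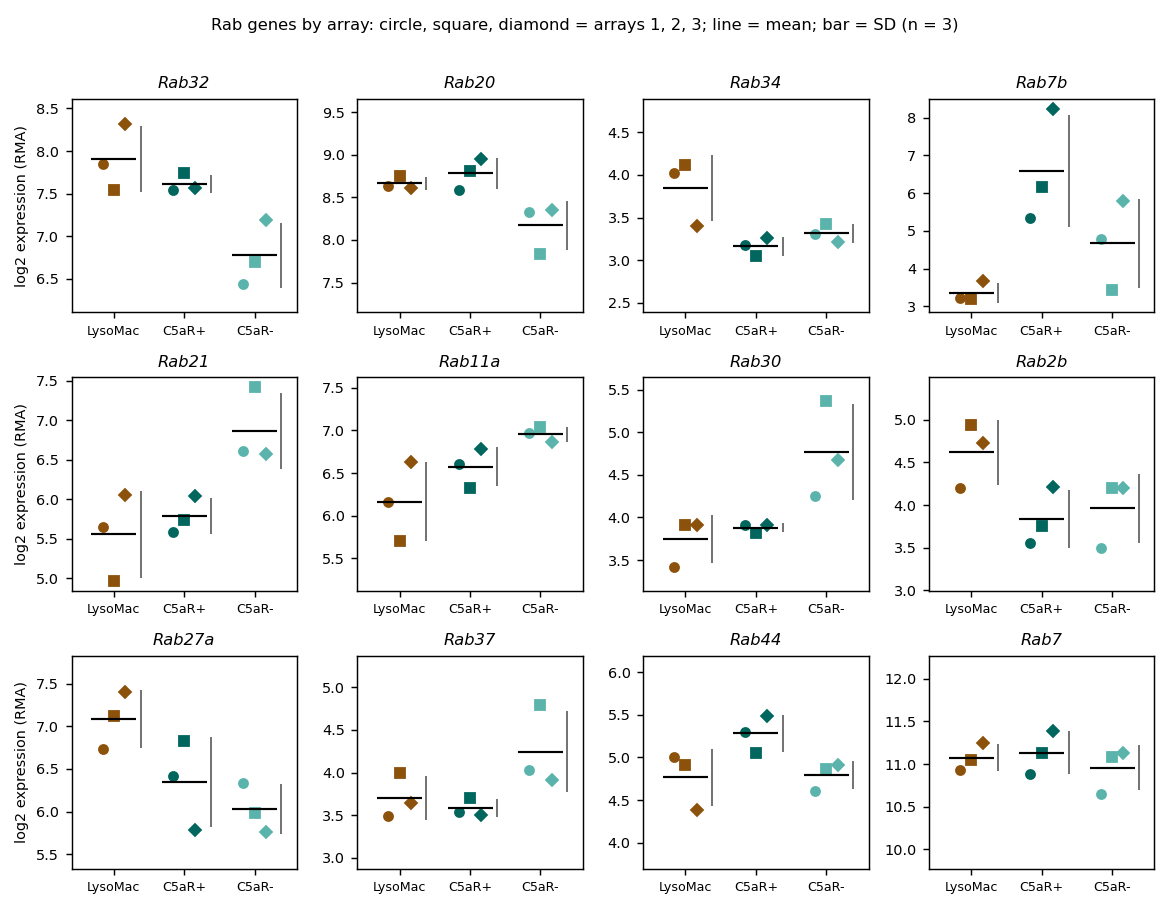
Log2 expression of 12 Rab genes on each array (points; circle, square and diamond are arrays 1, 2 and 3), with the population mean (line) and SD (vertical bar), n = 3 per population; each panel has its own axis. Rab32 and Rab20 are lowest, and Rab21 and Rab30 highest, in the C5aR- LysoDC arrays.

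The 14 Rab genes of early and recycling endosomes had a median difference of 0.22 for C5aR- LysoDC minus LysoMac and 0.23 for C5aR+ LysoDC minus LysoMac, each with 11 above and 3 below 0. Over all genes these medians were -0.04 and -0.02. None of the 14 passed. Rab21, which guides integrins and other cargo through early endosomes, was at 5.65, 4.96 and 6.05 on the LysoMac arrays, 5.58, 5.73 and 6.04 on those of C5aR+ LysoDC and 6.61, 7.42 and 6.57 on those of C5aR- LysoDC. All C5aR- LysoDC arrays were above the other 6. The difference from LysoMac was 1.31 ± 0.31 (95% interval 0.60 to 2.02; adjusted p = 0.0921), and C5aR+ minus C5aR- LysoDC was -1.08 ± 0.31 (adjusted p = 0.474). Over its alternatives the adjusted p against LysoMac ran from 0.0396 to 0.315, and it was 0.0499 after quantile normalization, 0.0441 after cyclic loess and 0.0396 without LysoMac array 3.

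Rab11a, the main Rab of recycling endosomes, was at 6.16, 5.70 and 6.62 on the LysoMac arrays, 6.61, 6.33 and 6.78 on those of C5aR+ LysoDC and 6.96, 7.04 and 6.86 on those of C5aR- LysoDC. The C5aR- LysoDC arrays were above all others, and the difference from LysoMac was 0.79 ± 0.23 (adjusted p = 0.168), or 1.02 with an adjusted p of 0.035 without LysoMac array 3. Its paralogue Rab11b was at 7.26, 6.59 and 7.95 in LysoMac and between 7.46 and 8.33 in the LysoDC arrays, with overlapping ranges and a difference of 0.53 ± 0.35 for C5aR- LysoDC minus LysoMac (adjusted p = 0.538). Its direction depended on the cluster: the other 2 clusters of Rab11b gave -0.01 and -0.62, and the mean of all 3 gave -0.03. Rab4a, of the fast recycling route, was dim: 8 of its 9 values were below the array median, and the exception was LysoMac array 2 at 4.20. Its difference of C5aR- LysoDC from LysoMac was -0.84 ± 0.35 (adjusted p = 0.348), and -0.45 without that array.

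The Rab5 genes organise fusion of early endosomes. Rab5c was at 7.55 to 7.59 on the LysoMac arrays, 7.66 to 7.73 on those of C5aR+ LysoDC and 7.66 to 7.70 on those of C5aR- LysoDC. Both LysoDC populations were above LysoMac without overlap, by 0.11 ± 0.11 (adjusted p = 0.85) and 0.10 ± 0.11 (adjusted p = 0.729), and the 95% intervals ended at 0.36 and 0.35. Rab5b ran from 7.79 to 8.44 over the 9 arrays with a difference of -0.02 ± 0.22 in both comparisons with LysoMac (adjusted p = 0.987 for C5aR+ and 0.977 for C5aR-). Rab5a ran from 4.37 to 5.93, its lowest value being LysoMac array 2. Its difference of C5aR- LysoDC from LysoMac was 0.42 ± 0.37 (adjusted p = 0.648), and the 95% interval of -0.42 to 1.26 included a 2-fold difference.

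The 16 Rab genes of the endoplasmic reticulum, the Golgi and outward transport had 12 above and 4 below 0 for C5aR- LysoDC minus LysoMac (median 0.25). For C5aR+ LysoDC minus LysoMac 13 were above and 3 below 0 (median 0.22). None of the 16 passed. Of all 22180 genes 9804 and 10418 were above 0 (medians -0.04 and -0.02), and the 2 comparisons share the LysoMac arrays. Rab30, a Golgi Rab, was at 3.42, 3.91 and 3.91 on the LysoMac arrays, 3.91, 3.82 and 3.91 on those of C5aR+ LysoDC and 4.25, 5.37 and 4.68 on those of C5aR- LysoDC. Again the C5aR- LysoDC arrays lay above the other 6, by 1.02 ± 0.27 over LysoMac (adjusted p = 0.125), and C5aR+ minus C5aR- LysoDC was -0.89 ± 0.27 (adjusted p = 0.511). LysoMac array 1 was below its array median. LysoMac arrays 2 and 3 and C5aR+ LysoDC arrays 1 and 3 hold the same value, so these SEs can be understated. Rab8b, which carries cargo to the plasma membrane, was at 7.08, 6.62 and 7.96 on the LysoMac arrays, 7.78, 7.83 and 8.35 on those of C5aR+ LysoDC and 7.90, 8.11 and 7.93 on those of C5aR- LysoDC. Its difference from LysoMac was 0.76 ± 0.31 in both LysoDC populations (adjusted p = 0.347 for C5aR- and 0.801 for C5aR+). Without LysoMac array 3 the difference of C5aR- LysoDC was 1.13 with an adjusted p of 0.0378, and without LysoMac array 2 it was 0.46 with 0.638.

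Rab2b, of transport between the endoplasmic reticulum and the Golgi, was at 4.19, 4.93 and 4.72 on the LysoMac arrays, 3.55, 3.75 and 4.22 on those of C5aR+ LysoDC and 3.50, 4.20 and 4.19 on those of C5aR- LysoDC. LysoMac array 1 lay among the LysoDC values, and the differences from LysoMac were -0.78 ± 0.27 for C5aR+ (adjusted p = 0.764) and -0.65 ± 0.27 for C5aR- (adjusted p = 0.351). Rab13, which acts between the trans-Golgi network and cell junctions, was dim, between 2.86 and 3.75, and differed by 0.42 ± 0.17 between C5aR+ LysoDC and LysoMac (adjusted p = 0.801).

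The 9 Rab genes of regulated secretion and granules had a median difference of -0.28 for C5aR- LysoDC minus LysoMac (3 above and 6 below 0). For C5aR+ LysoDC minus LysoMac it was -0.27 (2 above and 7 below 0). None of the 9 passed. Over all genes these medians were -0.04 (9804 above and 12367 below 0) and -0.02 (10418 above and 11759 below 0). Rab27a, which docks secretory granules and lysosome-related organelles at the plasma membrane, was at 6.73, 7.12 and 7.40 in LysoMac. The values were 6.42, 6.83 and 5.79 for C5aR+ LysoDC and 6.34, 5.98 and 5.76 for C5aR- LysoDC, so the C5aR- LysoDC arrays lay below LysoMac and the C5aR+ LysoDC arrays overlapped both. The difference from LysoMac was -1.06 ± 0.29 in C5aR- LysoDC (adjusted p = 0.14) and -0.74 ± 0.29 in C5aR+ LysoDC (adjusted p = 0.797). Its paralogue Rab27b was below the median of every array, between 2.41 and 2.80.

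Rab44, an unusually large Rab of granule-bearing cells, was highest in C5aR+ LysoDC (5.30, 5.05 and 5.49), against 5.00, 4.91 and 4.39 in LysoMac and 4.60, 4.86 and 4.91 in C5aR- LysoDC. The C5aR+ LysoDC arrays overlapped with neither of the others, and the differences were 0.51 ± 0.20 from LysoMac (adjusted p = 0.797) and 0.49 ± 0.20 from C5aR- LysoDC (adjusted p = 0.818). Rab37, known from mast cell granules, was at 4.03, 4.79 and 3.92 in C5aR- LysoDC and between 3.51 and 3.70 in C5aR+ LysoDC, a difference of -0.66 ± 0.24 for C5aR+ minus C5aR- (adjusted p = 0.697). Rab3c, of regulated exocytosis, was at 5.16, 5.25 and 4.73 in LysoMac and between 4.11 and 4.77 in the LysoDC arrays. Its difference of C5aR- LysoDC from LysoMac was -0.53 ± 0.21 (adjusted p = 0.343), while its second cluster gave -0.03 and the mean of both -0.28. Of the 4 remaining Rab genes, Rab40c differed by -0.48 ± 0.18 between C5aR- LysoDC and LysoMac (adjusted p = 0.302). Rab23, which acts at the cilium, was below the median of every array.

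Counted over the family, the arrays of C5aR- LysoDC and LysoMac did not overlap for 10 Rab genes. Of these, 5 were higher in C5aR- LysoDC (8.62%, against 8.43% of all genes) and 5 lower (8.62% against 7.05%). C5aR+ LysoDC and LysoMac did not overlap for 3 higher (5.17% against 4.43%) and 1 lower (1.72% against 3.76%). Between C5aR+ and C5aR- LysoDC, 3 were higher in C5aR+ (5.17% against 5.62%) and 5 lower (8.62% against 5.94%). These shares were near those of all genes, so they are not a result about the family.

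The proteins that act on Rab proteins were examined through lists of 116 genes, of which 108 were matched. Rin3 and Tbc1d4 passed in C5aR- LysoDC minus LysoMac (1.85% of the 108), and both also passed the F test. Of all 22180 genes 433 passed in that comparison, 324 higher and 109 lower, and 211 passed the F test. The share of the 108 that passed in that comparison was therefore near that of all genes. None of the 108 passed in the other comparisons (limma). There 10 (9.26%, against 6.49% of all genes) had an unadjusted p under 0.05 for C5aR+ LysoDC minus LysoMac and 11 (10.2%, against 6.41%) for C5aR+ minus C5aR- LysoDC. In C5aR- LysoDC minus LysoMac that count was 18 (16.7%, against 14.6%), 12 higher and 6 lower, a share near that of all genes.

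Rin3 was at 4.17, 4.05 and 4.05 on the LysoMac arrays, 4.38, 5.05 and 5.17 on those of C5aR+ LysoDC and 6.15, 5.99 and 6.35 on those of C5aR- LysoDC. The 3 populations did not overlap, with C5aR+ LysoDC in the middle. C5aR- LysoDC exceeded LysoMac by 2.08 ± 0.21 (95% interval 1.60 to 2.55; 4.22-fold; adjusted p = 0.00304), and Rin3 passed under all 17 alternatives with adjusted p from 0.00197 to 0.0186. C5aR+ minus C5aR- LysoDC was -1.30 ± 0.21 (adjusted p = 0.0785), and C5aR+ LysoDC minus LysoMac was 0.78 ± 0.21 (adjusted p = 0.632).

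Tbc1d4 was at 4.54, 4.18 and 4.70 on the LysoMac arrays, 5.07, 5.20 and 4.44 on those of C5aR+ LysoDC and 6.37, 7.49 and 6.27 on those of C5aR- LysoDC. All C5aR- LysoDC arrays were above all others, and C5aR+ LysoDC overlapped with LysoMac. The difference of C5aR- LysoDC from LysoMac was 2.24 ± 0.34 (95% interval 1.48 to 3.00; adjusted p = 0.015). The call was lost without LysoMac array 1 (adjusted p = 0.0723), without LysoMac array 2 (0.0534) and with the 2 populations fitted alone (0.0524), in a range of 0.00909 to 0.0723. C5aR+ minus C5aR- LysoDC was -1.81 ± 0.34 (adjusted p = 0.127). Rab8a, Rab10 and Rab14, on which Tbc1d4 acts, did not pass in this comparison.

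**Figure D3:**
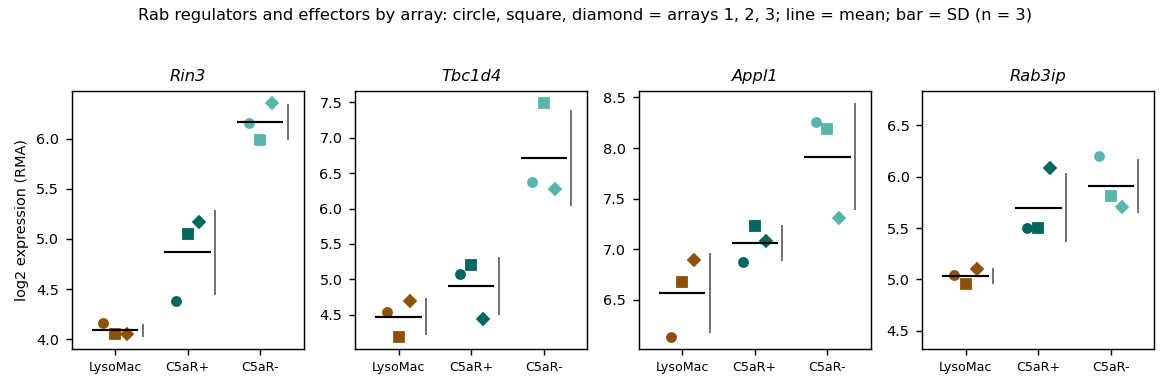
Log2 expression of the GEFs Rin3 and Rab3ip, the GAP Tbc1d4 and the effector Appl1 on each array (points; circle, square and diamond are arrays 1, 2 and 3), with the population mean (line) and SD (vertical bar), n = 3 per population; each panel has its own axis. For Rin3 and Tbc1d4 the C5aR- LysoDC arrays sit above all others.

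Among the 31 GEFs matched, 23 were above 0 for C5aR- LysoDC minus LysoMac (median 0.18). For C5aR+ LysoDC minus LysoMac 26 were above 0 (median 0.19), and Rin3 alone of the GEFs passed, in the first comparison. Of all 22180 genes 9804 and 10418 were above 0 (medians -0.04 and -0.02), and the 2 comparisons share the LysoMac arrays. Rab3ip, a GEF for Rab8, was at 5.05, 4.95 and 5.10 on the LysoMac arrays, 5.50, 5.50 and 6.08 on those of C5aR+ LysoDC and 6.20, 5.81 and 5.70 on those of C5aR- LysoDC. Both LysoDC populations were above LysoMac without overlap, by 0.66 ± 0.20 (adjusted p = 0.67) and 0.87 ± 0.20 (adjusted p = 0.0792). Among the 31 GAPs, 15 were above and 16 below 0 for C5aR- LysoDC minus LysoMac, and Tbc1d4 alone passed. Tbc1d22b, of the same GAP family, was between 6.10 and 6.33 in LysoMac and between 5.42 and 5.77 in the LysoDC arrays, a difference of -0.59 ± 0.15 for C5aR- LysoDC (adjusted p = 0.114) and -0.54 ± 0.15 for C5aR+ LysoDC (adjusted p = 0.64).

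Of 36 effectors, 12 were above and 24 below 0 for C5aR- LysoDC minus LysoMac, and none passed. Of all 22180 genes 9804 were above and 12367 below 0. Appl1, a Rab5 effector on early endosomes, was at 6.13, 6.68 and 6.90 on the LysoMac arrays, 6.88, 7.23 and 7.08 on those of C5aR+ LysoDC and 8.25, 8.19 and 7.31 on those of C5aR- LysoDC. Its difference was 1.35 ± 0.28 (adjusted p = 0.0586; range over the alternatives 0.0248 to 0.252), with no overlap between those populations. Rilpl1, which binds phosphorylated Rab8 and Rab10, differed by -0.78 ± 0.22 (adjusted p = 0.161). Of 7 prenylation and extraction genes none passed. Gdi2, which extracts Rab proteins bound to GDP from membranes, differed by 0.59 ± 0.18 (adjusted p = 0.192) and Rabggta, a subunit of the enzyme that prenylates Rab proteins, by -0.35 ± 0.19 (adjusted p = 0.462). Of the 3 genes for Rab kinases and phosphatases none passed. Lrrk2, a kinase of Rab8 and Rab10, was at 4.79, 5.03 and 6.03 in LysoMac and at 5.77, 6.58 and 6.15 in C5aR- LysoDC, a difference of 0.89 ± 0.32 (adjusted p = 0.284). Ppm1h, the opposing phosphatase, differed by -0.54 ± 0.30 (adjusted p = 0.483).

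**Figure D4:**
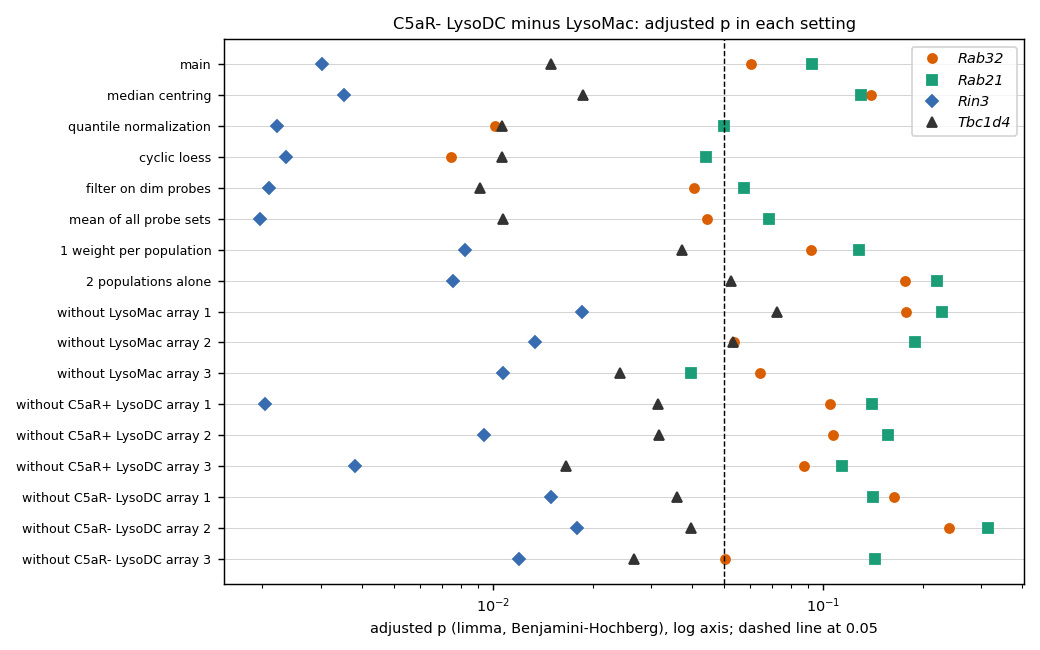
Adjusted p (limma, Benjamini-Hochberg; log axis) of 2 Rab genes and 2 regulators for C5aR- LysoDC minus LysoMac in the main setting and under 16 of the 17 alternatives; the dashed line is the threshold of 0.05. Rin3 stays below the line in all settings plotted, Tbc1d4 crosses it in 3, and Rab32 and Rab21 lie on either side of it.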

How the data were processed

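The authors deposited a log2 value for each transcript cluster on each array, made with RMA and Affymetrix Power Tools, per the submitters' processing notes. The sources used here give no versions, settings or genome build. The RNA was amplified before labelling, per the labels' protocols. The values were tested as deposited. Of the clusters, 23521 had 1 symbol in the platform annotation, 1814 had several and 8458 had none. For 23 of 58 Rab genes (39.7%, against 50.8% of all genes) several arrays hold the same value, within a population or across populations. Only where arrays of the same population share a value can the SD of that population be understated.

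Arrays were grouped by title; for arrays 2 and 3 of C5aR- LysoDC another label field names different receptors. Differences were fitted with limma 3.58.1 in R 4.3.3, 1 mean per population over 9 arrays (6 residual degrees of freedom), with moderated two-sided tests and Benjamini-Hochberg adjustment over 33793 clusters. The script was run on simulated data with 1 spread per cluster for all populations, and the outcome is not given here. That run does not cover the wider spread of LysoMac. The mean variance was 0.179 within LysoMac, 0.0958 within C5aR+ LysoDC and 0.0854 within C5aR- LysoDC. Shares at an unadjusted p and of arrays that do not overlap are over 22180 genes, 1 cluster each. With 3 arrays per population, the median SE of a difference over all clusters was 0.20, which limits the precision.

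The members, role groups, gene lists and marker lists were chosen with earlier results of these data known. Rab genes named are those that pass, the 8 largest differences in each direction per comparison at an unadjusted p under 0.05, the 2 smallest F test p per role group, and the Rab5, Rab7, Rab11, Rab27, Rab32, Rab34, Rab38, Rab39 and Rab43 genes. Regulators named are those that pass and the 2 smallest F test p per list. Rab8a and the other genes listed among calls gained under an alternative were named for those calls, after their values were seen.

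Same-numbered arrays of C5aR+ LysoDC and LysoMac deviated together (r = 0.16, 0.255 and 0.407 over clusters), and each of the 6 arrays correlated best with its own number, so the numbers were taken to pair these arrays. The source of the pairing is the titles' numbers and this check. The main fit, which gave the SEs, intervals and p-values above for C5aR+ LysoDC minus LysoMac, did not use the pairing. For C5aR+ and C5aR- LysoDC, same-numbered arrays correlated at 0.232, -0.0271 and 0.199. There 4 of 6 arrays correlated best with their own number, and these arrays were not treated as paired.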

Additional observations from a re-analysis of the deposited data

How the results depend on the processing

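Of 17 alternative settings, none gave a Rab gene that passed in C5aR+ LysoDC minus LysoMac or in C5aR+ minus C5aR- LysoDC, and of 713 recomputed values of named genes with an unadjusted p under 0.05 in the main setting 0 changed sign; Rab11b, with a larger p, did with the mean of its clusters. In C5aR- LysoDC minus LysoMac the count of Rab genes that passed was 2 (Rab32 and Rab21) after quantile normalization, 2 (the same genes) after cyclic loess, 1 (Rab32) with the filter on dim probes, which leaves 49 Rab genes, and 1 (Rab32) with the mean of all probe sets of a gene. Leaving out 1 array at a time gave 0 to 5, with the 5 (Rab11a, Rab21, Rab34, Rab8a and Rab8b) without LysoMac array 3. In the F test it was 1 (Rab32) after quantile normalization and 1 after cyclic loess. Of the regulators and effectors, 5 passed in C5aR- LysoDC minus LysoMac after quantile normalization and 5 after cyclic loess (Vps41, Tbc1d20 and Tbc1d22b beside Rin3 and Tbc1d4), 1 (Rin3) with the 2 populations fitted alone, and 1 to 8 when 1 array was left out, with 1 without LysoMac array 1 and 8 without LysoMac array 3. In C5aR+ minus C5aR- LysoDC 1 (Rin3, adjusted p = 0.0419) passed with 1 variance weight per population. The cause of these shifts was not tested. The shares of all genes under the alternatives are not given, so these counts are not a result about the family. With the replicate number as a block, 1 Rab gene (Rab32, adjusted p = 0.0427) passed in C5aR- LysoDC minus LysoMac, where same-numbered arrays correlated at 0.173, -0.112 and 0.129 and 2 of 6 arrays correlated best with their own number, so the numbers were not taken to pair them. The block changed no other count of genes that passed, including 0 for the paired C5aR+ LysoDC and LysoMac arrays. The counts at an unadjusted p under 0.05 were recomputed after the data had been seen; with the 2 populations fitted alone they were 8 for C5aR- LysoDC minus LysoMac and 4 for C5aR+ LysoDC minus LysoMac.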
